A study of Rattus norvegicus with 12 samples.

Results

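Genes of neutrophil granules and of a companion cytosolic protein pair, 10 in all, were followed in fetal rat liver: Mpo, Elane, Prtn3, Ctsg, Ltf, Camp, Olfm4, Mmp8, S100a8 and S100a9. They were chosen as granulocyte precursor genes by name, with earlier results of these data known. Each had 1 probe that the platform table links to it alone, and the 10 were found among 14497 named genes. All livers came from Sprague Dawley fetuses at day 19 of a gestation of 21 days. There were 4 groups of 3 Affymetrix Rat Gene 1.0 ST arrays: polysome RNA from fetuses of dams fasted for 48 hr from day 17, polysome RNA from fetuses of dams fed ad libitum, total RNA from fetuses of fasted dams, and total RNA from fetuses of fed dams. Fasting of the dam served as a model of restricted fetal growth, with 3 dams named per diet. Polysome RNA, which is RNA carried by several ribosomes at once, was extracted from pooled polysome preparations, whereas total RNA came from frozen whole liver. No agent or allele was given to any group.

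Fetal liver is the main site of blood cell formation before birth, and its neutrophil precursors lie between developing hepatocytes and erythroblasts. Granule proteins are made in waves: the azurophil enzymes at the promyelocyte stage and the specific granule proteins later, at the myelocyte stage. The S100 proteins S100a8 and S100a9 pair in the cytosol of neutrophils and monocytes as calprotectin. Azurophil and specific granule proteins are made with a signal peptide and enter the secretory pathway, whereas the S100 proteins lack one. All 10 genes were measured in whole liver, where fewer cells of a type and less RNA per cell cannot be told apart.

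The promoters of 4 members are given because these genes lay at the ends of the comparison of polysome with total RNA described below, or moved against a neighbour. Of the 10 members, 8 had a promoter in the RefSeq table (build GRCr8), a window from 250 bases before to 50 bases after the gene start. Capitals mark matches, on either strand, to 4 motifs of granulocyte and general promoters: TTGCNNAA for C/EBP factors, GAGGAA for PU.1, TGTGGT for RUNX factors and TATAAA for the TATA box.
Mmp8 (GRCr8 chr8:13008640-13008939, + strand): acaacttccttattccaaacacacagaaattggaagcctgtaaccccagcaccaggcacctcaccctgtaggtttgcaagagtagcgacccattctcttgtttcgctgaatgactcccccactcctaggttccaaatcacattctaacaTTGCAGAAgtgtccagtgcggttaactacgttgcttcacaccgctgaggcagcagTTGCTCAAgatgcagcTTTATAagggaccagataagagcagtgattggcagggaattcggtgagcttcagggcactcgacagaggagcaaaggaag
Olfm4 (GRCr8 chr15:61815981-61816280, + strand): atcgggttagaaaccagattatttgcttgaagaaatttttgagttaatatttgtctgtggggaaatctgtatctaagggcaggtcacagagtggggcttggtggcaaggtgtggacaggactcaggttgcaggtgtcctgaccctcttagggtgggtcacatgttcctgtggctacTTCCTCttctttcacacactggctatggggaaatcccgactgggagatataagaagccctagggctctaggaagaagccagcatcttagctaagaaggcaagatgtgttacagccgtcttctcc
Prtn3 (GRCr8 chr7:10476147-10476446, - strand): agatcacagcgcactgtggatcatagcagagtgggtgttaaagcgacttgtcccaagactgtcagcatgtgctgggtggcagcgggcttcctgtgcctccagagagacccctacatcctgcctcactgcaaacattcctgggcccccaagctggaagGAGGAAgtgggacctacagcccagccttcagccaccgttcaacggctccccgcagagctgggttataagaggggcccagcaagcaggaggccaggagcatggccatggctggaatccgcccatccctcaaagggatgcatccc
S100a9 (GRCr8 chr2:178490573-178490872, - strand): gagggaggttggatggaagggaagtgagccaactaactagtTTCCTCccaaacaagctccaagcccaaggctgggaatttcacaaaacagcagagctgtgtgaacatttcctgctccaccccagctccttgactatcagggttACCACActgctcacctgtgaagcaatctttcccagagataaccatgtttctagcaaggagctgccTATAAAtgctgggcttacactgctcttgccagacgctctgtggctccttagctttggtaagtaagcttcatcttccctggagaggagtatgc
Mmp8 held 2 C/EBP matches and 1 TATA match, and was the only 1 of the 8 member promoters with a C/EBP match, a motif found in 10.6% of all 33469 promoters. Olfm4 and Prtn3 each held 1 PU.1 match. S100a9 held 1 PU.1, 1 RUNX and 1 TATA match. The PU.1 letters were present in 5 of 8 member promoters and in 27.6% of all promoters, the RUNX letters in 3 of 8 and 17.3%, and the TATA letters in 3 of 8 and 14.2%. None of the matches in these 4 windows overlapped. A match describes letters only.

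Each array gave intensities for 28826 probes, with array medians from 101.3 to 108.3, and the correlation over all probes within a group lay between 0.9914 and 0.9961. Levels are log2(intensity + 1), differences are fitted log2 differences with the standard error (SE) of limma's linear model over all 12 arrays, and n = 3 arrays per group throughout. A gene was called at an adjusted p (Benjamini-Hochberg over all genes tested) under 0.05. Genes with a mean level of at least 6.87 log2, the 40th percentile, were tested, which left 8698. The liver label fitted its markers, since all 10 hepatocyte markers and the 11 erythroid markers on the array lay above this level in every group.

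In each polysome group 8 of the 10 members reached the filter level on all 3 arrays, and in each total group 9 did. Ltf lay under it throughout. Of all genes tested, 29.5% were called higher and 20.2% lower on polysomes in fasted dams, and 28% and 21.8% in fed dams. The members called moved in both directions too. In both diets, Olfm4 was about 3 times lower on polysomes than in total RNA, and Mpo was lower by about 1.5 times. S100a8 and S100a9 were about 2 times higher. Mmp8 was lower as well, but reached the filter level in total RNA only. Of the neighbouring serine protease genes, Elane fell in fed dams, a call lost without fed total array 2. In fasted dams Elane missed the threshold (limma adjusted p = 0.0524) but passed in 7 of 22 alternative fits. A difference between the diets in its shift was not shown (0.17 ± 0.24, limma adjusted p = 0.919). Prtn3 did not pass in either diet unless arrays were paired by number or, in fed dams, 1 of 2 single arrays was left out. Maternal fasting called none of the 9 members tested in either RNA fraction, beside 1.62% of all genes in total and 3.66% in polysome RNA.

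Mpo encodes myeloperoxidase, the haem enzyme of azurophil granules that makes hypochlorous acid. Its levels in arrays 1 to 3 were 11.51, 11.69 and 11.6 log2 in fasted polysome RNA and 11.43, 11.65 and 11.55 in fed polysome RNA, against 12.16, 12.13 and 12.15 in fasted total RNA and 11.88, 12.21 and 12.26 in fed total RNA. Every polysome array lay below every total array, and the diets overlapped within each fraction. Mpo was 1.46-fold lower on polysomes in fasted dams (-0.54 ± 0.098 SE log2, limma adjusted p = 0.000542) and 1.49-fold lower in fed dams (-0.58 ± 0.098, limma adjusted p = 0.000364).

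Elane encodes neutrophil elastase, a serine protease of the same granules. It measured 10.99, 10.3 and 10.57 log2 in fasted polysome RNA, against 11.06, 10.9 and 11.2 in fasted total RNA. In fed dams it measured 10.38, 10.57 and 10.26 in polysome RNA, against 10.68, 11.29 and 11.05 in total RNA. The fed arrays did not overlap between fractions, whereas fasted polysome array 1 lay above fasted total array 2. Elane fell 1.52-fold on polysomes in fed dams (-0.60 ± 0.17, limma adjusted p = 0.0106; 0.0523 without fed total array 2), and measured -0.43 ± 0.17 in fasted dams (limma adjusted p = 0.0524). With each diet and replicate number as a block, fasted dams passed as well (-0.43 ± 0.12, limma adjusted p = 0.0113).

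Prtn3 encodes proteinase 3, an elastase-like enzyme, and its gene starts next to Elane on chromosome 7 with 0 genes between them in the RefSeq table. Its levels were 9.84, 9.56 and 9.49 log2 in fasted polysome RNA and 9.7, 10.3 and 9.9 in fed polysome RNA, against 9.71, 9.05 and 9.21 in fasted total RNA and 9.3, 9.95 and 9.31 in fed total RNA. Polysome and total arrays overlapped as groups, but in all 6 pairs of arrays with the same diet and number the polysome array was the higher one, by 0.13 to 0.59 log2. In the fit of all 12 arrays without pairing, Prtn3 did not pass, at 0.30 ± 0.21 in fasted dams and 0.45 ± 0.21 in fed dams (limma adjusted p = 0.24 and 0.0862). It passed unpaired in fed dams without fed polysome array 1 (0.58, limma adjusted p = 0.0475) and without fed total array 2 (0.66, limma adjusted p = 0.0159). With the block it rose on polysomes in fasted dams (0.30 ± 0.086, limma adjusted p = 0.0115) and in fed dams (0.45 ± 0.086, limma adjusted p = 0.00122). Elane was the lower one on polysomes in all 6 pairs, by 0.07 to 0.79 log2. The polysome shift of Prtn3 exceeded that of Elane by 0.2, 1.1 and 0.91 log2 in the fasted pairs and by 0.69, 1.08 and 1.38 in the fed pairs, a contrast noticed in these data and not tested.

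Ctsg encodes cathepsin G, the azurophil protease with chymotrypsin-like activity. It measured 8.81, 8.77 and 8.71 log2 in fasted polysome RNA and 8.63, 9.01 and 8.9 in fed polysome RNA, against 8.61, 8.69 and 8.47 in fasted total RNA and 8.05, 9.07 and 8.9 in fed total RNA. The fasted polysome arrays lay just above the fasted total arrays, and fed total array 1 stood apart as the lowest. Its polysome difference was 0.18 ± 0.20 in fasted and 0.17 ± 0.20 in fed dams (limma adjusted p = 0.474 and 0.487), with intervals of -0.25 to 0.6 in both. The fed value turned to -0.14 without fed total array 1 and to -0.03 without both arrays of fed number 1.

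Among the specific granule genes, Ltf, the iron-binding lactoferrin, lay between 4.96 and 5.49 log2 on the 12 arrays. It was under the filter level on all of them and was not tested. Camp encodes the cathelicidin precursor of an antimicrobial peptide. It measured 10.04, 9.59 and 9.91 log2 in fasted polysome RNA and 9.72, 9.55 and 9.93 in fed polysome RNA, against 9.45, 10.12 and 9.95 in fasted total RNA and 9.84, 10.1 and 10.19 in fed total RNA. Fasted total array 1 was the lowest of all, and the fractions overlapped in both diets. Camp did not pass, at 0.01 ± 0.17 in fasted and -0.31 ± 0.17 in fed dams (limma adjusted p = 0.967 and 0.139), and its matched pairs ranged from -0.55 to 0.59.

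Olfm4 encodes olfactomedin 4, a secreted glycoprotein found in the specific granules of a subset of neutrophils. Its levels were 9.9, 9.56 and 9.96 log2 in fasted polysome RNA, against 11.51, 11.46 and 11.69 in fasted total RNA. In fed dams they were 9.07, 9.62 and 9.82 in polysome RNA, against 10.84, 11.11 and 11.43 in total RNA. The fractions were separated by more than the range within any group. Olfm4 fell 3.36-fold on polysomes in fasted dams (-1.75 ± 0.18, limma adjusted p = 8.15e-06) and 3.09-fold in fed dams (-1.63 ± 0.18, limma adjusted p = 1.53e-05). These were the 5th and 14th largest falls of 8698 genes.

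Mmp8 encodes neutrophil collagenase, which cleaves fibrillar collagen. It measured 6.82, 6.3 and 6.86 log2 in fasted polysome RNA, against 8.01, 8.44 and 8.6 in fasted total RNA. In fed dams it measured 6.65, 6.47 and 6.83 in polysome RNA, against 8.28, 8.32 and 8.82 in total RNA. All 6 total arrays and 0 of 6 polysome arrays reached the filter level, so Mmp8 passed the filter through its total RNA and had to be higher there. Its difference was -1.69 ± 0.19 log2 in fasted and -1.82 ± 0.19 log2 in fed dams, given as a description. With no filter, all 14497 genes were tested and Mmp8 passed in fasted dams (-1.69 ± 0.18, limma adjusted p = 1.61e-05) and in fed dams (-1.82 ± 0.18, limma adjusted p = 9.69e-06).

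S100a8 and S100a9 lie next to each other on chromosome 2 with 0 genes starting between them. S100a8 measured 8.7, 8.37 and 8.92 log2 in fasted polysome RNA, against 7.11, 7.33 and 7.26 in fasted total RNA. In fed dams it measured 8.1, 8.93 and 9.19 in polysome RNA, against 7.4, 7.85 and 7.79 in total RNA. Both diets showed a gap between fractions, wider in the fasted arrays, where the total arrays were also lowest. S100a8 rose 2.69-fold on polysomes in fasted dams (1.43 ± 0.23, limma adjusted p = 0.000199) and 2.08-fold in fed dams (1.06 ± 0.23, limma adjusted p = 0.00181), the 14th and 51st largest rises of 8698 genes.

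S100a9, the larger subunit, measured 11.47, 11.08 and 11.48 log2 in fasted polysome RNA, against 9.98, 10.4 and 10.39 in fasted total RNA. In fed dams it measured 11.25, 11.55 and 11.66 in polysome RNA, against 10.27, 10.75 and 10.94 in total RNA. No polysome array overlapped a total array. S100a9 rose 2.12-fold on polysomes in fasted dams (1.09 ± 0.18, limma adjusted p = 0.00024) and 1.78-fold in fed dams (0.83 ± 0.18, limma adjusted p = 0.00169). The polysome shift of S100a9 differed from that of S100a8 by -0.67 to 0.28 log2 over the 6 matched pairs.

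**Figure D1:**
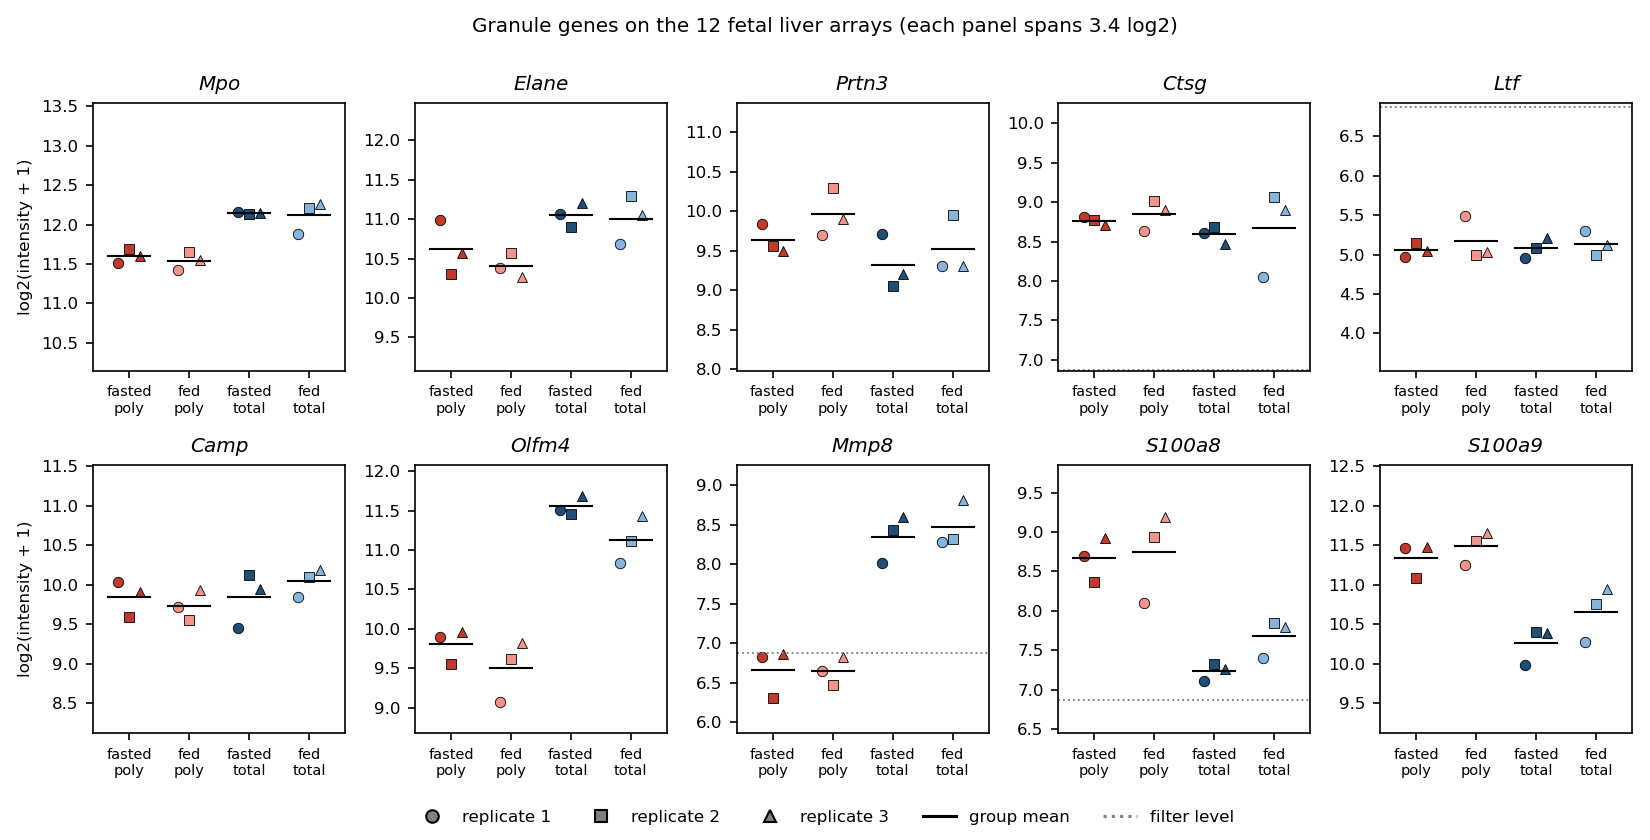
Levels of the 10 genes as log2(intensity + 1) on the y axis in each of the 12 arrays, by group on the x axis, with replicate numbers as circles, squares and triangles, group means as bars and the filter level of 6.87 as a dotted line. Olfm4 and Mmp8 lie lower and S100a8 and S100a9 higher in both polysome groups, and Ltf lies under the filter level throughout.

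The order of the 4 groups was the same for S100a8 and S100a9, which were highest in fed polysome RNA, then fasted polysome, fed total and fasted total RNA. Prtn3 and Ctsg had that order too, but all their neighbouring groups overlapped. Mpo, Elane and Olfm4 ran from fasted total, fed total and fasted polysome down to fed polysome RNA. Among these, the step between fed total and fasted polysome RNA was free of overlap for Mpo and Olfm4, and Olfm4 also had no overlap between fasted and fed total RNA. For S100a8 and S100a9 the step between fasted polysome and fed total RNA had no overlap. Mmp8 differed only in that fed total, with 8.47 ± 0.30 log2, lay above fasted total, with 8.35 ± 0.30 (mean ± SD, n = 3 each), which overlapped.

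In fasted dams, 5 of the 9 members tested were called between the fractions, 2 higher and 3 lower on polysomes, beside 49.7% of all genes tested (29.5% higher and 20.2% lower). In fed dams, 6 of 9 were called, 2 higher and 4 lower, beside 49.9% of all genes (28% higher and 21.8% lower). The arrays of the fractions did not overlap for 6 of 9 members in each diet, beside 57.3% of all genes in fasted and 57.7% in fed dams. These counts include Mmp8, which passed the filter only through its total RNA and had to be higher there. Without genes that reached the filter level on no polysome array, 4 of 8 members were called in fasted dams, beside 49.6% of all genes, and 5 of 8 in fed dams, beside 49.8%. These shares are near the background and are no result about the members as a group. The median difference of all genes was 0.069 log2 in fasted and 0.049 log2 in fed dams. With each diet and replicate number as a block, 7 of 9, Mmp8 included, were called in each diet, 3 higher and 4 lower, beside 54.6% of all genes in both.

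**Figure D2:**
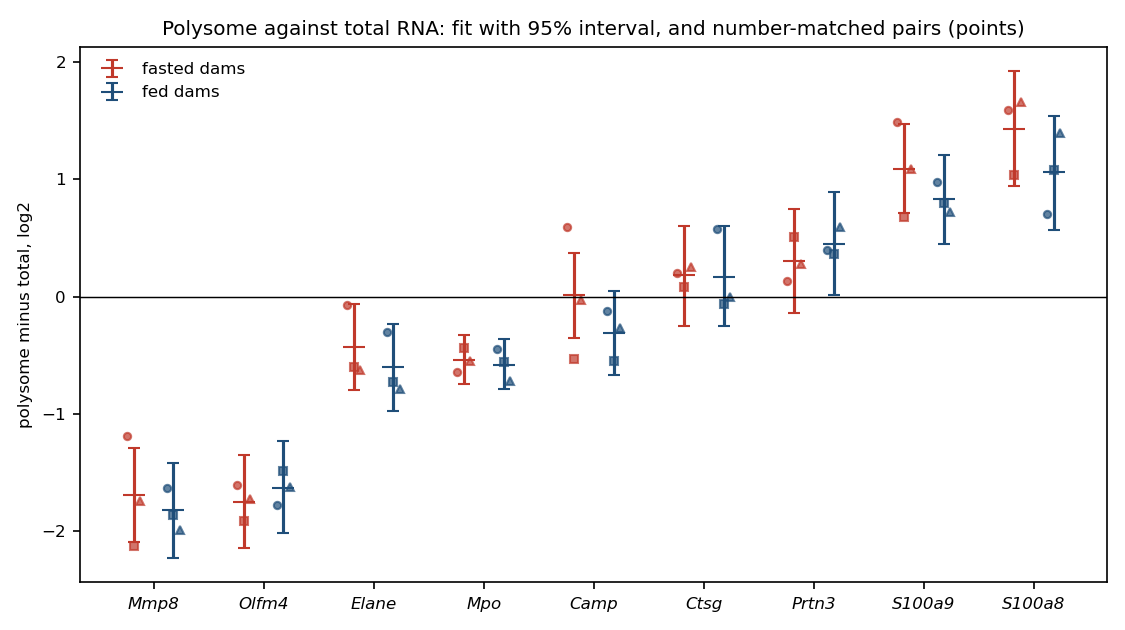
Polysome minus total difference in log2 on the y axis for the 9 tested genes on the x axis, as limma's fitted value with its 95% interval (bars) and as single pairs of arrays with the same diet and number (points; circle, square and triangle are replicates 1 to 3), in fasted dams (red) and fed dams (blue). Mmp8 and Olfm4 lie at -1.19 or lower in all 6 pairs and S100a8 and S100a9 at 0.68 or higher.

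Further genes were listed beside the members under granule headings, also with earlier results of these data known. They were 29 in all, of which 25 were on the array and 21 were tested. Not all of them encode granule contents, among them Igsf6, Ltb4r, Hpgd and Padi4, and hepatocytes also express Hp. On polysomes 12 of the 21 fell in fasted dams and 14 in fed dams, with 0 higher in either, beside 20.2% and 21.8% of all genes called lower. The same 12 genes fell in both diets, Igsf6, Ltb4r and Hp among them. Of the 21, Igsf6, Mmp9, Ltb4r, Hpgd and Retnlg reached the filter level on only some polysome arrays, at 1 to 3 of 6, and on all 6 total arrays. With no filter, 12 of 25 genes fell in fasted dams and 15 of 25 in fed dams, with 0 higher, beside 12.7% and 13.3% of all 14497 genes called lower. Ngp, a cathelicidin-like neutrophil granule protein of rodents, fell 1.97-fold in fasted dams (-0.98 ± 0.21, limma adjusted p = 0.00187) and 2.77-fold in fed dams (-1.47 ± 0.21, limma adjusted p = 9.87e-05). Chi3l1, a chitinase-like protein of specific granules, fell 1.82-fold and 2.24-fold (limma adjusted p = 0.00101 and 0.000113). Mmp9, the gelatinase of tertiary granules, fell 1.52-fold and 1.67-fold (limma adjusted p = 0.00121 and 0.000309). Itgb2, the integrin subunit stored in granule membranes, fell 1.72-fold and 1.64-fold, and the lysozyme gene Lyz2, which macrophages also express, fell 1.43-fold and 1.7-fold. Igsf6, a myeloid surface protein kept in the list of primary granule genes, fell 1.80-fold and 2.05-fold. Each pair of values gives fasted dams before fed dams, and the 21 genes had medians of -0.51 and -0.61 log2.

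Cybb, the membrane-bound catalytic subunit of the phagocyte oxidase, fell 2.20-fold on polysomes in fasted dams (-1.14 ± 0.097, limma adjusted p = 1.82e-06) and 2.31-fold in fed dams (-1.21 ± 0.097, limma adjusted p = 1.46e-06). It was the only 1 of the 5 oxidase genes tested to pass in either diet. Of 15 regulators and receptors of granulocyte development, 3 were higher and 6 lower on polysomes in fasted dams, and 2 higher and 4 lower in fed dams. These are 60% and 40% of the list, near the 49.7% and 49.9% of all genes, and no result about it. Runx1, a transcription factor of blood formation, rose 1.33-fold and 1.22-fold. The chemokine receptor Cxcr4, which holds granulocytes in blood-forming tissue, fell 1.34-fold and 1.25-fold, and its ligand Cxcl12 fell 1.41-fold and 1.34-fold.

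Markers of other cell types were also compared between the fractions. Of all genes tested, 29.5% were called higher and 20.2% lower on polysomes in fasted dams, and 28% and 21.8% in fed dams. Of 15 macrophage and monocyte markers tested, 10 were lower on polysomes in each diet, and 1 was higher in fasted and 0 in fed dams. All 9 endothelial markers tested were lower in both diets. Summed over the 15 macrophage markers on the array, of 16 listed, intensities ran from 8104 to 8684 in fasted polysome and 7253 to 7405 in fed polysome RNA, against 11187 to 12420 in fasted total and 10365 to 10908 in fed total RNA. The part of these cells in the shifts of genes they share with neutrophils, such as Lyz2 and Cybb, was not tested. Of 11 erythroid markers tested, 2 were higher and 2 lower on polysomes in fasted dams, and 3 higher and 2 lower in fed dams. Tfrc, the transferrin receptor, fell 1.39-fold in both diets, and Klf1, an erythroid transcription factor, rose 1.26-fold in fasted and 1.21-fold in fed dams. Of 10 hepatocyte markers, 1 was higher and 5 lower in fasted dams, and 1 higher and 4 lower in fed dams. Among them Fgb, a fibrinogen chain, fell 1.24-fold and 1.29-fold. Called in either direction were 36.4% and 45.5% of the erythroid and 60% and 50% of the hepatocyte markers, in fasted and fed dams. These shares lie near the 49.7% and 49.9% of all genes. Summed intensities of the 11 erythroid markers overlapped in all groups, at 70837 to 72462 in fasted polysome, 70807 to 73806 in fed polysome, 70018 to 71998 in fasted total and 69841 to 74778 in fed total RNA.

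The study's main question was how fasting of the dam altered the transcripts of the fetal liver and their polysome load. In total RNA, 0 of the 9 members tested were called between fasted and fed dams, beside 1.62% of all genes. At an unadjusted p under 0.05 there were 2, Olfm4 and S100a9, beside 17.5% of all genes. In polysome RNA 0 of 9 were called, beside 3.66% of all genes, and 0 had an unadjusted p under 0.05, beside 22.9%. The median member difference was -0.12 log2 in total and 0.01 log2 in polysome RNA.

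The 3 members with the largest differences in total RNA did not share a direction, and none of the 3 passed. Olfm4, with the values given above, was higher in every fasted total array than in any fed total array, at 0.42 ± 0.18 log2 (interval 0.03 to 0.82, limma adjusted p = 0.257). S100a8 was lower in every fasted total array than in any fed one, at -0.45 ± 0.23 (interval -0.94 to 0.04, limma adjusted p = 0.329). S100a9 overlapped between diets and measured -0.40 ± 0.18 (interval -0.78 to -0.02, limma adjusted p = 0.271). Groups without overlap were found for these 2 of 9 members and for 26.2% of all genes. On polysomes, Olfm4 measured 0.30 ± 0.18, S100a8 -0.07 ± 0.23 and S100a9 -0.14 ± 0.18 (limma adjusted p = 0.343, 0.865 and 0.675). No member was free of overlap there, against 22.5% of all genes.

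Estimates for the azurophil genes in total RNA depended on single arrays. Mpo measured 0.03 ± 0.098 log2 (interval -0.19 to 0.24) and Elane 0.04 ± 0.17 (interval -0.33 to 0.42), and both turned negative without fed total array 1, at -0.09 and -0.12. Prtn3 measured -0.19 ± 0.21 and Ctsg -0.09 ± 0.20 (intervals -0.64 to 0.25 and -0.51 to 0.34). Ctsg moved to -0.40 without fed total array 1, and also without both arrays of fed number 1, where the limma adjusted p was lowest at 0.092. Other arrays turned signs as well. Elane turned to -0.03 without fasted total array 3, and Prtn3 to 0.02 without fed total array 2. Ctsg turned to 0.11 without fed total array 2 and to 0.03 without fed total array 3. Of the specific granule genes, Camp measured -0.21 ± 0.17 and Mmp8 -0.12 ± 0.19 (intervals -0.57 to 0.15 and -0.53 to 0.28). The limma adjusted p of these 6 genes lay between 0.569 and 0.927. On polysomes Mpo measured 0.06 ± 0.098, Elane 0.22 ± 0.17, Prtn3 -0.34 ± 0.21 and Ctsg -0.08 ± 0.20. Camp measured 0.12 ± 0.17 and Mmp8 0.01 ± 0.19 there, with limma adjusted p between 0.347 and 0.975 for these 6 genes.

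**Figure D3:**
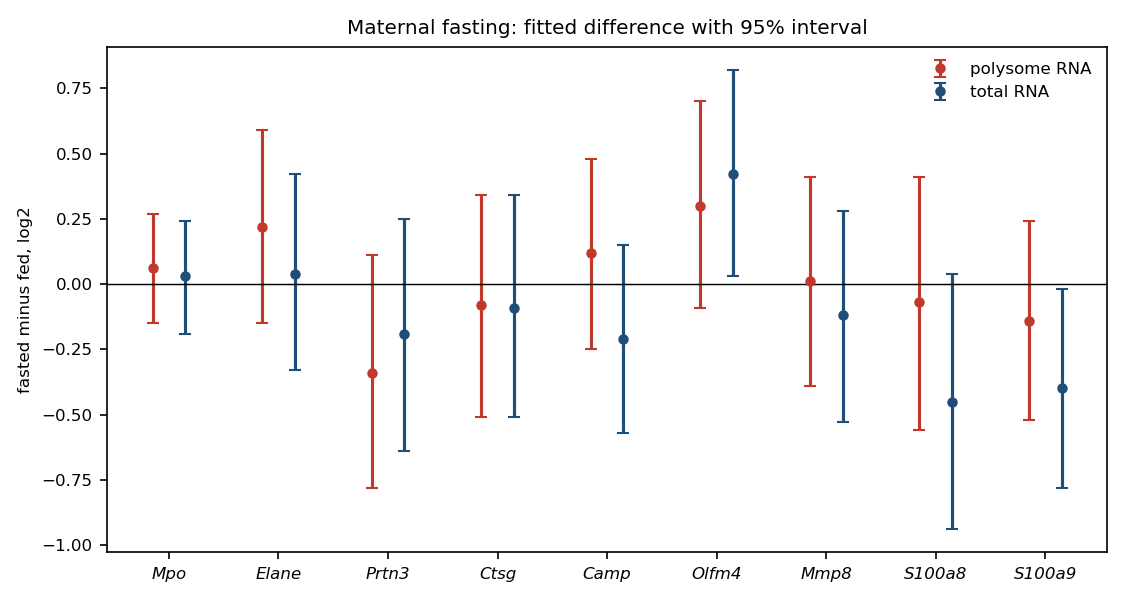
Fasted minus fed difference in log2 on the y axis, with limma's 95% interval as bars, for the 9 tested genes on the x axis, in polysome RNA (red) and total RNA (blue). The interval leaves 0 out only for Olfm4 and S100a9 in total RNA, and neither passed after adjustment.

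The difference between the fasting effects on polysomes and in total RNA was tested as an interaction. It called 0 of 9 members, and 0% of all genes, with 500 of 8698 genes (5.75%) and 0 members at an unadjusted p under 0.05. S100a8 measured 0.37 ± 0.32 log2 (interval -0.32 to 1.06), Camp 0.32 ± 0.24 and S100a9 0.26 ± 0.25 (limma adjusted p = 0.861, 0.846 and 0.874). The other 6 lay between -0.15 and 0.17 log2. With the block 0 members and 1 gene in all (0.0115%) were called. A difference between the diets in the polysome shift of S100a8 was therefore not shown.

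Of all genes tested, 1.62% were called for fasting in total RNA and 3.66% in polysome RNA. Of the 21 genes tested from the other granule lists, 0 were called in total RNA. There 4 had an unadjusted p under 0.05, beside 17.5% of all genes. In polysome RNA 1 of the 21 was called. That gene was Igsf6, which rose 1.31-fold (0.39 ± 0.087, limma adjusted p = 0.0352). Igsf6 reached the filter level on only 1 of 6 polysome arrays. Its difference stayed between 0.31 and 0.44 log2 in 22 alternative fits, but the call was lost in 6 of them, with limma adjusted p up to 0.129 without fasted polysome array 1. Of 15 macrophage and monocyte markers tested, 0 were called for fasting in total RNA and 2 in polysome RNA. On polysomes 12 of the 15 differences lay above 0 and 3 below. The 2 called were Cd68, a lysosomal membrane protein, and C1qb, a complement chain. They rose 1.33-fold and 1.42-fold (limma adjusted p = 0.0215 and 0.0354). These calls were lost in 5 and 6 of the 22 alternative fits, with limma adjusted p up to 0.107 and 0.131. Among the 15 regulators and receptors, Csf2rb rose 1.26-fold in total RNA (0.34 ± 0.077, limma adjusted p = 0.0498). Csf2rb, the shared receptor chain for GM-CSF, interleukin 3 and interleukin 5, passed in 3 of 22 alternative fits, and its limma adjusted p reached 0.154 without fed total array 2. Of 9 endothelial markers tested, 3 rose in total RNA (33.3%): Esam, an endothelial adhesion molecule, 1.32-fold, Pecam1, a junction protein, 1.35-fold, and Fcgr2b, an Fc receptor of liver sinusoidal endothelium and of leukocytes, 1.52-fold (limma adjusted p = 0.0365, 0.0379 and 0.0385). Fcgr2b was also called in polysome RNA, where it rose 1.48-fold (limma adjusted p = 0.0352). Esam and Pecam1 were not called there (limma adjusted p = 0.748 and 0.536). The alternative fits were not examined for these 3 endothelial genes. Over all genes, calls in total RNA fell from 141 to 18 without fed total array 1. None of the 5 phagocyte oxidase genes was called in either fraction.

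In fed total RNA, array 1 was the lowest of the 3 for all 9 members, beside 30.6% of all genes, with a median deviation from the group mean of -0.28 log2 against 0 for all genes. In fed polysome RNA, array 1 was lowest for 6 of 9, beside 46.3% of all genes. Genes of the other granule lists showed the same order in fed total RNA, where array 1 was lowest for 6 of 6 on the primary list and 9 of 15 on the specific and tertiary list. It was also lowest for 12 of 15 regulators and receptors, 4 of 5 oxidase genes, 3 of 5 eosinophil, basophil and mast cell markers and 5 of 10 hepatocyte markers. That array was the highest for 8 of 11 erythroid, 6 of 9 endothelial, 6 of 15 macrophage and 2 of 10 hepatocyte markers, beside 33% of all genes. In fasted polysome RNA, array 2 was lowest for 6 of 9 members, beside 51.6% of all genes. No cause of these differences between arrays was tested.

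**Figure D4:**
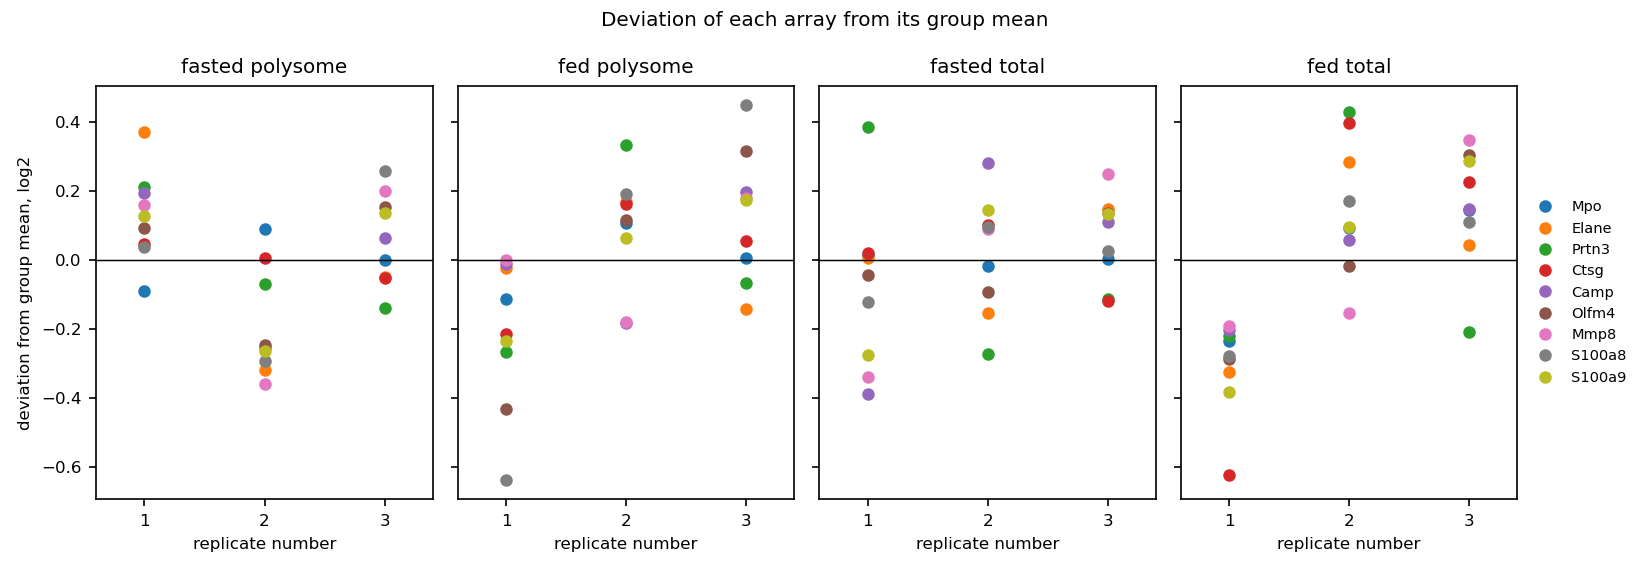
Deviation of each of the 9 tested genes from its group mean in log2 on the y axis, by replicate number on the x axis, in 4 panels for the groups. All 9 points of fed total array 1 lie below 0, and the median of that array is -0.28.

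The genes most like the members were sought by correlating every other tested gene with the mean deviation of the 9 members from their group means over the 12 arrays. The highest values belonged to Defa11, a neutrophil defensin (Pearson r = 0.948), Cst7, a leukocyte cystatin of the primary granule list (0.937), and F13a1, the coagulation factor XIII A chain of monocytes and megakaryocytes (0.928). Lyrm7, Plac8, Borcs6, Mgat4b and Ccl6 followed, at 0.919, 0.919, 0.918, 0.905 and 0.904. These are descriptions over 12 arrays whose same-numbered fractions deviate together, and they are the highest of 8689 genes compared. When levels over the 12 arrays were used, which include the differences between fractions and diets, F13a1 (0.912), Cul2 (0.902), Tomm20 (0.901) and Tm6sf1 (0.891) came first, followed by Csnk2a2, Anxa1, Fut2 and Rab27a at 0.89 to 0.842.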

How the data were processed

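Arrays held RNA of fetal liver in 4 groups of 3. Deposited values were intensity on a linear scale (3.62 to 21344 over all arrays) and were made by the authors with RMA per the submitters' processing notes; its version and settings are not given in the sources used here. RMA scales arrays to a common distribution, so polysome and total levels are relative to each array.

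Probes were named by the platform table (15209 of 28826 with 1 symbol, standing for 14497 genes; 306 had several symbols and 13311 were not listed), with the brightest probe per gene, and symbols were updated by Entrez identifier for 15178. A cell means model was fitted to log2(intensity + 1) of all 12 arrays with limma 3.58.1 (residual degrees of freedom 8, prior 5.17) in R 4.3.3, two-sided, with Benjamini-Hochberg over 8698 genes; 5799 genes under the 40th percentile were left out. The fit was tested on simulated data. Figures used Python 3.11.15 and matplotlib 3.10.9. Array number limits the precision.

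Polysome and total arrays of one diet and replicate number were taken as pairs. This is an inference from the data, since the labels do not say what a number marks. Deviations from group means correlated at 0.16 to 0.37 in all 6 such pairs, and at -0.26 to -0.021 where the numbers differed. Deviations from a group's own mean cancel out within that group. The range for unlike numbers is therefore not independent of the range for like numbers. Calls made with the block rest on this inference. Fasted and fed arrays of one fraction correlated at -0.15 to 0.35 with one number and at -0.29 to 0.28 with unlike numbers, and were not taken as pairs.

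All 10 members are described, whereas genes of other lists are named where called for fasting or by smallest p, and the 8 genes most alike by correlation. The members and lists were chosen with earlier results of these data known. Alternatives were other filters, scalings, probe rules, priors, blocks, array subsets and leaving out each array; the filter over all probes, leaving out both arrays of fed number 1, and counts without genes under the filter level on every polysome array were added after seeing the data.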

Additional observations from a re-analysis of the deposited data

How the results depend on the processing

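Over 22 alternative fits (21 for the difference of fasting effects, which needs all arrays), 10 of the 11 called member differences, all between polysome and total RNA and 2 of them of Mmp8, kept their direction and call. The exception was Elane in fed dams, at an adjusted p of 0.0523 without fed total array 2. Of the member values, 928 kept direction and side of the threshold, 1 lost its call, 11 gained one (all Elane in fasted dams or Prtn3, polysome against total) and 41 turned sign, all of them uncalled. The replicate block changed the calls of Elane in fasted dams (adjusted p 0.0113) and of Prtn3 (0.0115 fasted, 0.00122 fed) and no other member's; under it the difference of fasting effects called 1 gene, against 0. The genes called for fasting in total RNA, 141, became 57 with no filter, 61 with only the arrays compared and 19 without both arrays of fed number 1, and 18 to 206 when each array was left out in turn. For polysome RNA, 318 became 93, 40, and 205 with the filter over all probes, and 10 to 858 with each array left out; 858 came without fasted polysome array 2 and 18 without fed total array 1. Sign turns with both arrays of fed number 1 left out were Mpo at -0.09 and Elane at -0.12 (fasting, total RNA) and Ctsg at -0.03 (polysome minus total, fed). Quantile normalization gave -0.01 for Mpo and 0 for Ctsg (difference of fasting effects) and -0.02 for Camp (polysome minus total, fasted). With each array left out in turn, the log2 ranges that crossed 0 were as follows. Fasting in total RNA gave -0.09 to 0.1 for Mpo, -0.12 to 0.19 for Elane, -0.39 to 0.02 for Prtn3, -0.4 to 0.11 for Ctsg and -0.25 to 0.05 for Mmp8. Fasting in polysome RNA gave -0.09 to 0.19 for Mmp8 and -0.39 to 0.15 for S100a8. The difference of fasting effects gave -0.04 to 0.15 for Mpo, -0.01 to 0.34 for Elane, -0.36 to 0.05 for Prtn3, -0.19 to 0.32 for Ctsg, -0.34 to 0.04 for Olfm4 and -0.04 to 0.32 for Mmp8. Polysome minus total gave -0.19 to 0.15 for Camp in fasted and -0.14 to 0.37 for Ctsg in fed dams. The cause of these changes was not tested. With 3 arrays a group, small changes are not resolved, and Ltf and the polysome level of Mmp8 lay under the filter level.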

Other observations

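Granule genes of eosinophils, which arise from related precursors, were measured beside the neutrophil genes. Epx, the eosinophil peroxidase, was 1.85-fold lower on polysomes in fasted dams (-0.88 ± 0.13 log2, limma adjusted p = 0.000131) and 1.59-fold lower in fed dams (-0.67 ± 0.13, limma adjusted p = 0.00108). Prg2, the major basic protein, fell 1.34-fold in fasted dams (limma adjusted p = 0.033) and measured -0.24 ± 0.15 in fed dams (limma adjusted p = 0.21). Gata2, a transcription factor of mast cell and eosinophil precursors, rose 1.35-fold in fasted dams (limma adjusted p = 0.0427) and measured 0.24 ± 0.16 in fed dams (limma adjusted p = 0.234). Prg3 and Hdc, also tested, were not called in fasted dams (limma adjusted p = 0.606 and 0.233) or in fed dams (0.903 and 0.894). Of the 5 markers tested, 1 was higher and 2 lower on polysomes in fasted dams, and 0 higher and 1 lower in fed dams. These are 60% and 20%, beside 49.7% and 49.9% of all genes, and no result about the list. Of the 14 eosinophil, basophil and mast cell markers, 5 were tested and 0 were called for fasting in total or polysome RNA by limma. Of all genes tested, 1.62% and 3.66% were called. At an unadjusted p under 0.05 there was 1 marker in total RNA and 0 in polysome RNA, beside 17.5% and 22.9% of all genes. Epx was that gene, at 0.40 ± 0.13 log2 in total RNA (limma adjusted p = 0.14).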
